A study of Homo sapiens with 6 samples.

Results

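Aminoacyl-tRNA synthetases join each amino acid to its matching transfer RNA, and so set the supply of charged tRNA for translation. In animal cells nuclear genes encode 2 sets, one for the cytosol and one imported into mitochondria, where the mitochondrial ribosome makes a few subunits of the respiratory chain. Several cytosolic enzymes sit together in the multisynthetase complex on the scaffold proteins AIMP1, AIMP2 and EEF1E1. When amino acids run short, uncharged tRNA activates the kinase GCN2 (gene EIF2AK4), translation of the transcription factor ATF4 increases, and ATF4 induces genes of amino acid synthesis and uptake together with many cytosolic synthetases. Transcripts of 35 synthetase genes, 19 cytosolic and 16 mitochondrial, were examined here among the 20169 gene rows of the series; they were chosen by name, each matched 1 row, and the aspartyl enzymes were not analysed here. GARS1 and KARS1, each of which gives both the cytosolic and the mitochondrial enzyme from 1 gene, were counted as cytosolic.

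The samples were HEK293T cells, a transformed human embryonic kidney line grown in DMEM with serum and antibiotics, in which a landing pad had been placed in the genome. A landing pad is a docking site that accepts 1 inserted construct. All groups carried one, and the 2 groups differed by its promoter: PGK, from a glycolytic gene, or CAG, a strong hybrid promoter. The design calls the lines monoclonal and the labels tell apart 1 line per promoter, so promoter and clone cannot be told apart in any value below. Each group held 3 polyadenylated RNA libraries. The labels do not say that these came from separate cultures, so that a p-value here rests on the spread among libraries that could be technical repeats.

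The libraries held 21896246 to 23442542 counts, and 14952 to 15360 genes had a count. Of 10 HEK293 markers 8 had a row, and 6 of them reached 1 CPM (counts scaled to a library of 1000000) in every library; the neurofilament NEFM, one of the other 2, differed strongly between the lines. Of 9 markers of blood, liver, pancreas, glia and muscle with a row, 8 were under 1 CPM in every library and 3 had no count. The summed level of these 9 was 0.832 to 1.48 CPM in PGK and 1.48 to 2.13 CPM in CAG. All 35 synthetases passed the filter on low counts in both lines, so none was left out. Differences between the lines were common across the transcriptome: the quasi-likelihood test of edgeR, fitted to all 13103 tested genes and adjusted by Benjamini-Hochberg, called 62.0% of them at an adjusted p under 0.05, 31.6% higher and 30.4% lower in CAG. Unless another fit or test is named, an adjusted p below comes from that fit. Every fold change is CAG over PGK, and every level is in CPM on the scaled library size.

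A short element was found in the promoter windows of 7 cytosolic genes and of YARS2. The C/EBP-ATF response element, to which ATF4 binds with a C/EBP partner, was searched as TGATGNAA on both strands in RefSeq promoter windows (GRCh38.p14, 250 bases before to 50 bases after each start), which matched 30 of the 35 genes. AARS2, LARS1, VARS1, VARS2 and YARS1 had no window and were not searched for any element. TGATGNAA was found for 7 of 16 cytosolic genes and for 1 of 14 mitochondrial genes, against 2.77% of 10477 tested genes and 3.62% of all 35116 windows. The 8 matches are shown because the ATF4 programme is one of the comparisons below. Capitals mark the element, which is shown as its reverse complement where it lies on the strand opposite to the gene, TTTCATCA in GARS1 and TTGCATCA in the other opposite-strand matches.
AARS1 (chr16:70289677-70289702, minus strand): ttctcgcagTTGCATCAgccaagtta
CARS1 (chr11:3057409-3057434, minus strand): gggcggcggTTGCATCAgattctagg
GARS1 (chr7:30594836-30594861, plus strand): acgcggcgaTTTCATCAtgctccgag
IARS1 (chr9:92293694-92293719, minus strand): ttcagcgcgTTGCATCAcctccgtgc
MARS1 (chr12:57488055-57488080, plus strand): cggttccggTTGCATCAgcgagggat
NARS1 (chr18:57621806-57621831, minus strand): tacgctctcTGATGCAAcgccggaat
TARS1 (chr5:33440958-33440983, plus strand): gcctttcgaTTGCATCAgctggtcca
YARS2 (chr12:32756078-32756103, minus strand): ccacactgcTGATGGAAaaattaagt
In TARS1, CARS1, MARS1, IARS1, NARS1 and GARS1 the element lay between 33 bases before and 14 bases after an annotated start, while in AARS1 it lay 187 and in YARS2 197 bases upstream. GARS1 and YARS2 were the matches that differed from TGATGCAA at the free position N. A match is a description of the letters and not a shown binding site.

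HARS1 and HARS2 stand head to head on chromosome 5, with annotated starts 85 bases apart and 184 bases common to their windows. Both windows hold the same pair of ETS-type matches (CCGGAAG, either strand), one of which is printed in each reading direction with the element in capitals.
HARS1 (chr5:140691364-140691388, minus strand): actcgatagCCGGAAGtcatccttg
HARS2 (chr5:140691364-140691388, plus strand): caaggatgaCTTCCGGctatcgagt
CCGGAAG was found for 9 of 16 cytosolic and 7 of 14 mitochondrial genes with a window, against 22.1% of tested genes. An NRF1-type match (GCGC and TGCGC with 1 free base between them, either strand) was found for 3 of 16 and 3 of 14, against 13.2% of tested genes, and the E-box CACGTG, which reads the same on both strands, for 1 of 16 and 3 of 14, against 12.7%.

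Among called enzymes, the cytosolic ones fell more often than they rose, and the mitochondrial ones the reverse. Of 19 cytosolic enzymes 9 fell, 4 rose and 6 were not called, so that 68.4% were called against 62.0% of all tested genes; their median log2 fold change was -0.12, beside -0.002 over all tested genes. Of 16 mitochondrial enzymes 8 rose, 2 fell and 6 were not called, or 62.5%, with a median of 0.08. By sign alone, called or not, 8 mitochondrial enzymes were positive and 8 negative, and 8 cytosolic enzymes were positive and 11 negative. Without CAG replicate 3, 2 cytosolic enzymes were higher and 1 mitochondrial enzyme was lower. The share called in each set was near that of all genes, of which 31.6% were higher and 30.4% lower. No test of the sets against other genes was made. With the median change of neighbouring genes subtracted, as described below, the medians were -0.02 for cytosolic and 0.01 for mitochondrial enzymes. Most changes were small, with an absolute log2 fold change of at least that of a 1.5-fold difference in 3 cytosolic and 2 mitochondrial enzymes, or 14.3% of the 35, against 21.1% of all tested genes. In a test against a 1.5-fold change, which called 11.5% of all genes, YARS1, RARS1 and CARS2 kept their call. The cytosolic set summed to 5102 to 5176 CPM in the PGK libraries and 4800 to 4845 CPM in the CAG libraries, while the mitochondrial set summed to 1014 to 1039 CPM in PGK and 1124 to 1136 CPM in CAG.

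**Figure D1:**
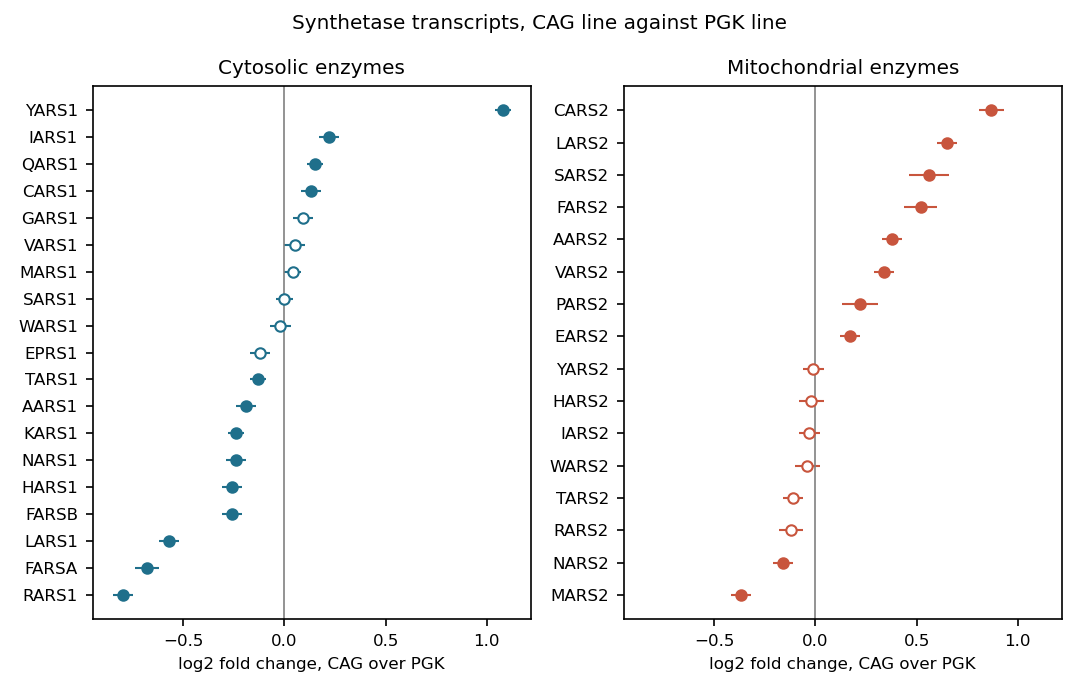
log2 fold change of each synthetase (x axis, CAG over PGK) for the 19 cytosolic and the 16 mitochondrial enzymes (y axis); bars are standard errors and filled points passed an adjusted p under 0.05. YARS1 at 1.08 and RARS1 at -0.80 are the ends of the cytosolic set, CARS2 at 0.87 and MARS2 at -0.37 those of the mitochondrial set.

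YARS1, the cytosolic tyrosyl enzyme, rose 2.12-fold and had the largest change of the 35. It was at 214, 217 and 213 CPM in the 3 PGK libraries and at 466, 454 and 444 CPM in the 3 CAG libraries. Every CAG library stood far above every PGK library, and the spread within a line was a few percent. The log2 fold change was 1.08 (SE 0.04, adjusted p = 4.27e-13), and it stayed between 1.06 and 1.12 over 13 alternative fits. YARS1 (ENSG00000134684, chromosome 1) overlaps S100PBP on the other strand in 4.8% of its exon bases, and whether reads were counted by strand is stated by neither the labels nor the processing notes. The median log2 fold change of its 50 neighbouring tested genes was 0.58. Its mitochondrial counterpart YARS2 did not follow, at 54.8, 54.3 and 54.7 CPM in PGK and 53.6, 54.7 and 54.6 CPM in CAG.

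The other rises among cytosolic enzymes were small. IARS1, which charges isoleucine tRNA within the multisynthetase complex, was at 400, 446 and 426 CPM in PGK and 473, 512 and 499.7 CPM in CAG, a log2 fold change of 0.22 (SE 0.05, adjusted p = 8.17e-04). QARS1, the glutaminyl enzyme of the complex, was at 228.5, 220.5 and 231 CPM in PGK and 249.6, 246 and 256 CPM in CAG, a log2 fold change of 0.15 (SE 0.04, adjusted p = 0.00842). In both genes the lines did not overlap. CARS1, the cysteinyl enzyme, rose from 56.2, 57.8 and 57.9 CPM to 64.4, 60.8 and 63.2 CPM, with an adjusted p of 0.0328 in edgeR's test. The CARS1 call was lost in 6 of 13 alternative fits, with an adjusted p from 0.0102 to 0.118 over all of them. QARS1 missed the threshold in 1 of the 13, without CAG replicate 3, where its adjusted p was 0.0546, the highest of values from 0.000402 upward.

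RARS1, FARSA and LARS1 fell most. RARS1, the arginyl enzyme of the complex, was at 392, 398 and 371.5 CPM in PGK and at 229, 224 and 215 CPM in CAG, a log2 fold change of -0.80 (SE 0.05, adjusted p = 7.15e-11). FARSA, the catalytic alpha subunit of phenylalanyl-tRNA synthetase, was at 521, 445 and 476 CPM in PGK and at 306, 283 and 311 CPM in CAG, a log2 fold change of -0.68 (SE 0.06, adjusted p = 9.97e-09). LARS1, the leucyl enzyme that also reports leucine to mTORC1, was at 352, 378 and 361 CPM in PGK and 237, 259 and 238 CPM in CAG, a log2 fold change of -0.57 (SE 0.05, adjusted p = 1.05e-08). For all 3 genes the highest CAG library lay well under the lowest PGK library.

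FARSB, the beta subunit that pairs with FARSA in the same enzyme, fell less, from 132, 149.5 and 138 CPM to 119, 117 and 114 CPM, a log2 fold change of -0.26 (SE 0.05, adjusted p = 2.5e-04). The count ratio of FARSA to FARSB was 3.94, 2.97 and 3.45 in PGK and 2.56, 2.43 and 2.73 in CAG. All CAG ratios lay under all PGK ratios, and the mean log2 ratio differed by -0.42 (SE 0.13), with an exact two-sided permutation p of 0.1, the smallest that 3 against 3 can give. Per kilobase of transcript, FARSA stood at 265 CPM and FARSB at 41.6 CPM in PGK, and at 165 and 34.6 CPM in CAG.

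Histidyl, lysyl, asparaginyl, alanyl and threonyl enzymes fell by smaller steps. KARS1, the lysyl enzyme of the complex and of mitochondria, was at 263, 264 and 253 CPM in PGK and 225, 219 and 218 CPM in CAG, a log2 fold change of -0.24 (SE 0.04, adjusted p = 1.34e-04). HARS1 was at 147, 135 and 136 CPM in PGK and 118.5, 115 and 115 CPM in CAG, a log2 fold change of -0.26 (SE 0.05, adjusted p = 1.63e-04). NARS1 had a log2 fold change of -0.24 and AARS1 one of -0.19, both with no overlap between the lines. TARS1 was at 331, 349 and 345 CPM in PGK and 316, 314 and 305 CPM in CAG, with an adjusted p of 0.015 in edgeR's test; the call was lost when counts were scaled by library size only and without CAG replicate 3, at adjusted p of 0.0597 and 0.082 in a range of 0.00142 to 0.082.

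The remaining 6 cytosolic enzymes were not called. WARS1, the tryptophanyl enzyme that interferon induces in many cells, was at 135, 139.7 and 132 CPM in PGK and 137, 136 and 128 CPM in CAG, and SARS1, the seryl enzyme, at 247, 247 and 248 CPM in PGK and 252, 245.5 and 244.5 CPM in CAG. The lines overlapped in both. The log2 fold change of MARS1, the methionyl enzyme, was 0.04 (SE 0.04), and that of VARS1, the valyl enzyme, 0.05 (SE 0.05). EPRS1, which charges both glutamate and proline tRNA, had a log2 fold change of -0.12 and overlapping lines, and passed the test in 5 of 13 alternative fits, where its adjusted p ran from 0.00424 to 0.226. GARS1, the glycyl enzyme of both compartments, was at 209, 221.5 and 207 CPM in PGK and 229, 227 and 225 CPM in CAG, without overlap, and its adjusted p in edgeR's test was 0.0784, in a range of 0.0185 to 0.244 with 3 of 13 fits under the threshold.

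Within the cytosolic set, the 7 enzymes of the multisynthetase complex (EPRS1, IARS1, KARS1, LARS1, MARS1, QARS1 and RARS1) went both ways, with 2 higher, 3 lower and 2 not called (71.4% called, against 62.0% of all tested genes). Their summed level was 2306 to 2411 CPM in PGK and 2065 to 2138 CPM in CAG. Of the 12 other cytosolic enzymes 2 were higher, 6 lower and 4 not called. By structural class, counted over both compartments, the 18 class I enzymes had 8 higher and 3 lower, and the 16 class II enzymes 4 higher and 8 lower; EPRS1 joins both classes and was left out of this count. The called shares were 61.1% and 75.0%, beside 31.6% of all tested genes higher and 30.4% lower, and the difference between the classes was not tested.

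**Figure D2:**
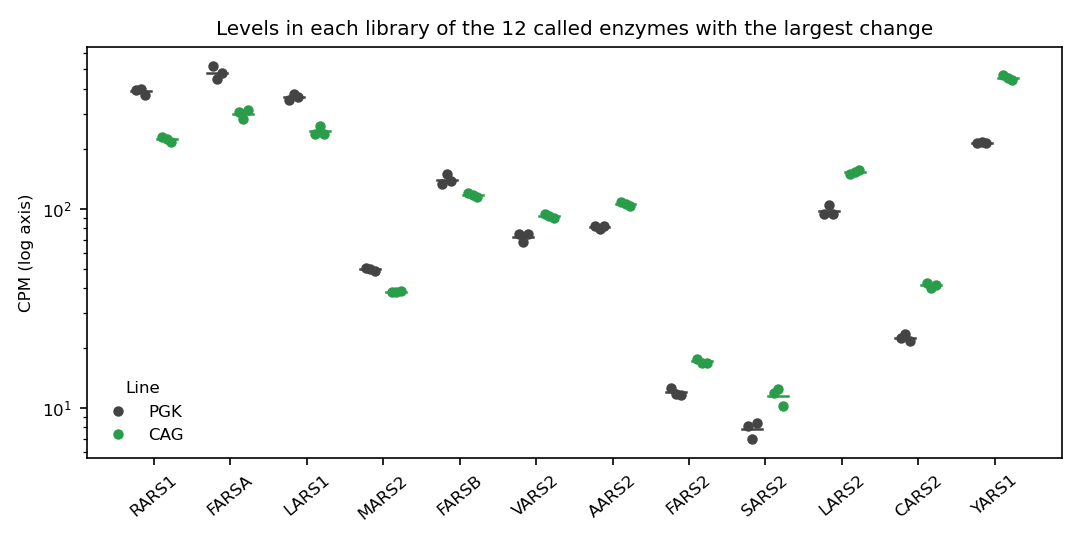
Level in each library (y axis, CPM, log axis) of the 12 called synthetases with the largest change (x axis, ordered by log2 fold change); points are libraries, short lines are group means. In each of the 12 the 3 PGK points and the 3 CAG points do not overlap, from RARS1 at 387 against 223 CPM to YARS1 at 215 against 454.5 CPM. The 12 were picked by call and size of change, and 65.5% of all tested genes did not overlap either.

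Among mitochondrial enzymes CARS2, LARS2, SARS2 and FARS2 rose most. CARS2, which charges mitochondrial cysteine tRNA, was at 22.5, 23.4 and 21.8 CPM in PGK and 42.6, 39.9 and 41.5 CPM in CAG, a log2 fold change of 0.87 (SE 0.06, adjusted p = 9.82e-10). LARS2, the mitochondrial leucyl enzyme, was at 94.5, 104 and 94.5 CPM in PGK and 148, 154 and 157 CPM in CAG, a log2 fold change of 0.65 (SE 0.05, adjusted p = 3.96e-09). FARS2, the single-chain mitochondrial phenylalanyl enzyme, was at 12.6, 11.8 and 11.6 CPM in PGK and 17.7, 16.8 and 16.9 CPM in CAG, a log2 fold change of 0.52 (SE 0.08, adjusted p = 8.88e-06). In none of these genes did a PGK library reach the lowest CAG library. SARS2, the mitochondrial seryl enzyme, was low, at 8.1, 6.97 and 8.41 CPM in PGK and 11.9, 12.4 and 10.3 CPM in CAG, a log2 fold change of 0.56 (SE 0.10, adjusted p = 9.49e-05). SARS2 shares 46.2% of its exon bases with another gene model on the same strand that also has a row, so its level is uncertain.

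AARS2 and VARS2, the mitochondrial alanyl and valyl enzymes, rose 1.30-fold and 1.27-fold. AARS2 was at 82.2, 79.5 and 81.5 CPM in PGK and 107.5, 106 and 103 CPM in CAG, a log2 fold change of 0.38 (SE 0.05, adjusted p = 1.81e-06). VARS2 was at 74.4, 68.4 and 74.5 CPM in PGK and 93.8, 91.7 and 90.2 CPM in CAG, a log2 fold change of 0.34 (SE 0.05, adjusted p = 1.46e-05); it shares 22.0% of its exon bases with GTF2H4 on the same strand and is uncertain. EARS2, the mitochondrial glutamyl enzyme, rose by 0.17 on the log2 scale (SE 0.05, adjusted p = 0.00652). PARS2, the mitochondrial prolyl enzyme and one of the least abundant members, was at 11.7, 10.7 and 13.1 CPM in PGK and 13.6, 14.4 and 13.2 CPM in CAG. The lines of PARS2 lay next to each other, and its call at an adjusted p of 0.0406 in edgeR's test was lost in 6 of 13 alternative fits, with a range of 0.0137 to 0.178.

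MARS2 and NARS2 fell. MARS2, the mitochondrial methionyl enzyme, was at 50.7, 50.1 and 48.5 CPM in PGK and 38.1, 38.4 and 38.6 CPM in CAG, a log2 fold change of -0.37 (SE 0.05, adjusted p = 8.58e-06). NARS2, the mitochondrial asparaginyl enzyme, was at 58.1, 56.2 and 57.1 CPM in PGK and 51.8, 51.9 and 50.1 CPM in CAG, with an adjusted p of 0.0131 in edgeR's test and 0.0698 without CAG replicate 3, in a range of 0.00281 to 0.0698. HARS2 was at 41.1, 47.2 and 45.0 CPM in PGK and 42.7, 45.0 and 43.5 CPM in CAG, and the lines overlapped. IARS2, WARS2 and YARS2 also overlapped, with log2 fold changes of -0.03, -0.04 and -0.01. RARS2 at -0.12 and TARS2 at -0.11 did not overlap between lines and were not called; TARS2 passed in 2 of 13 alternative fits.

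Most cytosolic enzymes were the more abundant of the sets per kilobase of the principal coding transcript. In PGK the cytosolic enzymes ran from 21.3 CPM per kilobase for CARS1 to 265 for FARSA, with a median of 80.2, and the mitochondrial ones from 3.81 for SARS2 to 72.6 for IARS2, with a median of 17.9. In CAG the cytosolic median was 86.2 and the mitochondrial one 19.8, with the same 4 genes at the ends. The level of SARS2 is uncertain, as given above, and so is its place at the low end. IARS2 stood apart among mitochondrial enzymes, with TARS2 next at 42.5 CPM per kilobase in PGK. In PGK 12 cytosolic enzymes lay above IARS2, and in CAG 13.

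The balance between the cytosolic and the mitochondrial enzyme of 1 amino acid was compared in 14 pairs as a ratio of counts within each library, which needs no scaling between libraries. In 8 pairs the ratio was lower in every CAG library than in every PGK library, in 3 pairs it was higher, and in 3 pairs the libraries overlapped. Separation of the lines was common, with CPM that did not overlap in 65.5% of all tested genes, so the 11 separated pairs are given as a description. With 3 libraries against 3, an exact permutation test cannot give a p under 0.1; the 11 pairs without overlap all reached it, with a Benjamini-Hochberg value of 0.127 over the 14 pairs, so none passed. The leucine pair moved most toward the mitochondrial enzyme: LARS1 to LARS2 was 3.72, 3.64 and 3.82 in PGK and 1.60, 1.68 and 1.51 in CAG, a difference in log2 ratio of -1.22 (SE 0.05). In that pair the cytosolic enzyme fell and the mitochondrial one rose, as in the alanine pair, which differed by -0.57 (SE 0.03).

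The cysteine pair differed by -0.74 (SE 0.03), with CARS1 and CARS2 both higher in CAG and CARS2 by more. The arginine pair differed by -0.68 (SE 0.06), with the change in RARS1. Smaller negative differences were found for serine at -0.56 (SE 0.11), valine at -0.29 (SE 0.04), glutamate (EPRS1 to EARS2) at -0.28 (SE 0.06) and histidine at -0.24 (SE 0.10). The serine and valine ratios are uncertain, since SARS2 and VARS2 share exon bases with other gene models on the same strand, as given above. The ratio of HARS1 to HARS2, the head-to-head pair printed above, was 3.57, 2.86 and 3.02 in PGK and 2.78, 2.56 and 2.64 in CAG, so that PGK replicate 1 lay far from the other 2 of its line; without it the difference was -0.14. The genes share exon bases on opposite strands, 5.6% of those of HARS1 and 11.7% of those of HARS2, so both levels are uncertain. Tyrosine went the other way, with YARS1 to YARS2 at 3.91, 3.98 and 3.90 in PGK and 8.69, 8.29 and 8.13 in CAG, a difference of 1.09 (SE 0.03). Methionine at 0.41 (SE 0.03) and isoleucine at 0.26 (SE 0.03) also moved toward the cytosolic enzyme. Asparagine, threonine and tryptophan overlapped, with differences of -0.08 (SE 0.05), -0.03 (SE 0.03) and 0.02 (SE 0.06).

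**Figure D3:**
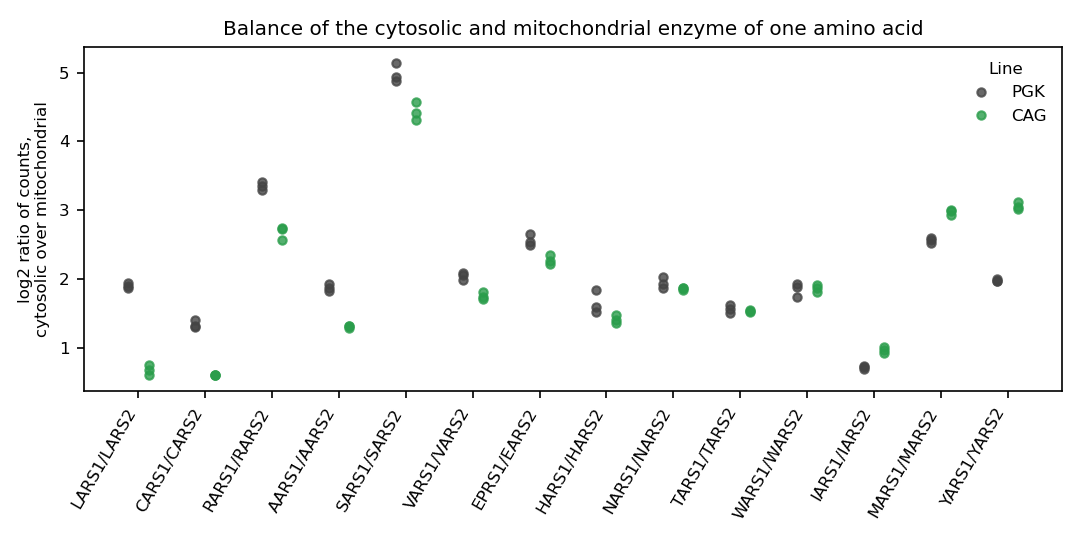
log2 ratio of counts of the cytosolic over the mitochondrial enzyme (y axis) for 14 amino acids (x axis, ordered by the difference between lines); each point is 1 library. LARS1/LARS2 at the left differs by -1.22 and YARS1/YARS2 at the right by 1.09, while the asparagine, threonine and tryptophan pairs overlap.

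The 8 members with the largest changes lay where neighbouring genes had shifted the same way. For each enzyme the median log2 fold change of the 50 tested genes nearest in order on its chromosome was taken, leaving the enzyme out. All 8 members with an absolute log2 fold change of at least 0.5 (YARS1, CARS2, LARS2, SARS2, FARS2, LARS1, FARSA and RARS1) had a neighbourhood median of at least 0.25 in the same direction. The size of 0.5 was chosen after values were seen, and the share of all genes of that size in such neighbourhoods was not computed. The next members by size, AARS2, MARS2 and VARS2, had neighbourhoods at -0.12, 0.01 and -0.07. Of the 23 called members 11 did so (47.8%), against 2850 of 8048 called genes overall (35.4%); whether these shares differ was not tested. Pearson's r between a member's change and its neighbourhood was 0.82 over the 35 members and 0.34 over 12908 genes, as a description, since neighbouring genes share windows.

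CARS2 on chromosome 13 rose by 0.87 in a neighbourhood at 0.93, and LARS2 on chromosome 3 by 0.65 in one at 0.48. SARS2 on chromosome 19 rose by 0.56 in one at 0.46, while FARSA on the same chromosome fell by 0.68 in one at -0.35. On chromosome 5 RARS1, LARS1 and HARS1 fell by 0.80, 0.57 and 0.26 in neighbourhoods at -0.44, -0.35 and -0.30. HARS2, in the same neighbourhood as HARS1, was at -0.02. QARS1 rose by 0.15 in a neighbourhood at 0.42 and PARS2 by 0.22 in one at 0.40, both less than their neighbours. Other members moved where neighbours had not: AARS2 and VARS2 rose by 0.38 and 0.34 with neighbourhoods at -0.12 and -0.07, and MARS2, KARS1 and AARS1 fell by 0.37, 0.24 and 0.19 with neighbourhoods at 0.01, 0.03 and 0.06. After the neighbourhood was subtracted, YARS1 and AARS2 were both at 0.50, VARS2 at 0.41, MARS2 at -0.38, RARS1 at -0.36 and FARSA at -0.33. The medians of the sets were then -0.02 for cytosolic and 0.01 for mitochondrial enzymes. The part of the neighbourhoods in these changes was not tested.

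**Figure D4:**
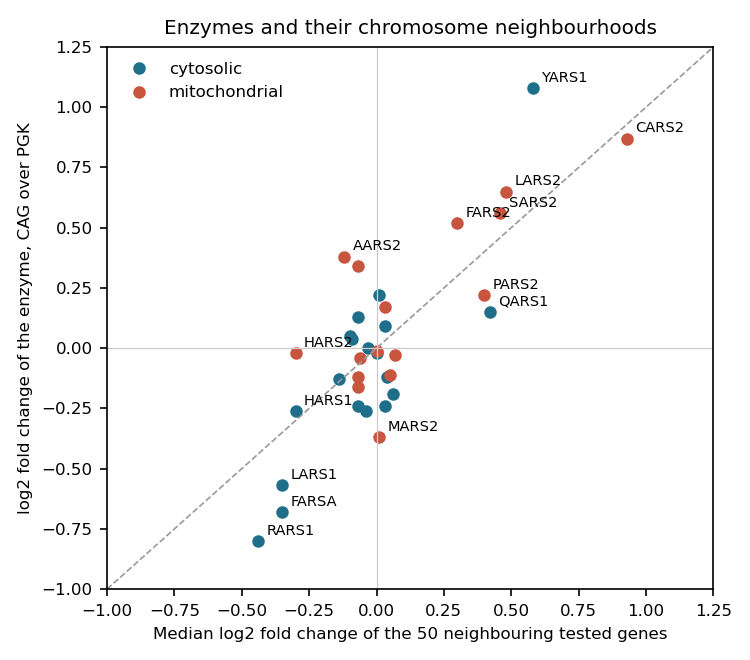
log2 fold change of each of the 35 enzymes (y axis) against the median log2 fold change of its 50 neighbouring tested genes (x axis); the dashed line marks equal values. CARS2 at 0.93 and 0.87 lies near the line, YARS1 at 0.58 and 1.08 lies above it, and AARS2 and MARS2 changed with neighbourhoods near 0.

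ATF4 and 20 other genes of a list of ATF4 targets were higher in the CAG line, 5 were lower, and the synthetases with the C/EBP-ATF element went both ways. Of the 31 tested genes of the list 83.9% were called, against 62.0% of all tested genes (31.6% higher and 30.4% lower), with a median log2 fold change of 0.31; this list was chosen with earlier results of these data known. ATF4 itself went from 516 ± 3.99 CPM in PGK to 729 ± 17.2 CPM in CAG (SD, n = 3), which is 0.50 on the log2 scale (SE 0.04, adjusted p = 1.51e-08 in edgeR's test). ASNS, which makes asparagine, rose by 0.69 (SE 0.05). SLC7A11, the cystine transporter, rose by 3.16, CHAC1, which breaks down glutathione, by 1.06, SLC7A1, a carrier of arginine and lysine, by 0.93, and SLC1A4, a neutral amino acid carrier, by 0.88. The neighbourhoods of SLC7A11 and SLC7A1 were at 0.40 and 0.50, and ASNS shares 44.6% of its exon bases with another gene model on the same strand. The 5 lower genes were DDIT3, which encodes the stress factor CHOP, at -0.44 (SE 0.11), CBS, which makes cystathionine, at -0.25 (SE 0.05), ALDH18A1 and PYCR1 of proline synthesis at -0.19 (SE 0.04) and -0.18 (SE 0.05), and SHMT2 of mitochondrial serine use at -0.15 (SE 0.05). DDIT3 was low, at 7.08, 7.15 and 7.05 CPM in PGK and 5.41, 5.42 and 4.91 CPM in CAG, and it shares 27.2% of its exon bases with MARS1 on the other strand. Of the 7 cytosolic synthetases with the element in the window, IARS1 at 0.22 and CARS1 at 0.13 rose, AARS1 at -0.19, NARS1 at -0.24 and TARS1 at -0.13 fell, and GARS1 at 0.09 and MARS1 at 0.04 were not called.

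Genes that sense uncharged tRNA or act on eIF2 went both ways, with 6 of 17 higher and 5 lower and a median of -0.01; 64.7% were called, close to the 62.0% of all tested genes. EIF2AK4, which encodes the sensor kinase GCN2, stood at 62.0 ± 4.94 CPM in the PGK and 61.6 ± 2.67 CPM in the CAG line (SD, n = 3), with a log2 difference of -0.01 (SE 0.06). GCN1, which GCN2 needs for its activation on ribosomes, rose by 0.61 (SE 0.05). EIF2B5, the catalytic subunit of the exchange factor of eIF2, fell by 0.71 (SE 0.05). EIF2AK2, the kinase activated by double-stranded RNA, rose by 0.39 (SE 0.07) and PPP1R15A, which directs dephosphorylation of eIF2, by 0.43 (SE 0.08). The neighbourhoods of EIF2B5, GCN1 and PPP1R15A had medians of -0.66, 0.38 and 0.38, and that of EIF2AK2 one of -0.03.

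Of 12 tested partners of the synthetases 7 were lower, 2 higher and 3 not called, with a median of -0.21. The called share was 75.0%, against 62.0% of all tested genes, of which 30.4% were lower. The scaffold genes of the multisynthetase complex differed: AIMP2 fell by 0.36 (SE 0.05) and EEF1E1 fell by 0.25 (SE 0.07), while AIMP1, at 0.06 (SE 0.06), was not called. AIMP2 shares 28.9% of its exon bases with EIF2AK1 on the other strand and is uncertain. GATB and GATC, subunits of the enzyme that makes mitochondrial glutaminyl-tRNA by amidation, rose by 0.40 (SE 0.07) and 0.53 (SE 0.05). QRSL1, the other subunit of that enzyme, fell by 0.26 (SE 0.06), so its subunits went both ways. GATC shares 39.1% of its exon bases with SRSF9 on the other strand. The neighbourhoods of GATB and GATC were at 0.42 and 0.39. MRPL58, a peptidyl-tRNA hydrolase of the mitochondrial ribosome, fell by 0.41 (SE 0.07).

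Elongation factors bring charged tRNA to the ribosome or move it along. Of 10 tested genes 7 were lower and 0 higher by edgeR's test (70.0% called, against 62.0% of all tested genes, of which 30.4% were lower), and 0 were higher by DESeq2 or limma-voom. TSFM, the mitochondrial exchange factor, was the 1 gene higher at an unadjusted p under 0.05, with a log2 fold change of 0.12, and it passed the adjusted test with library size scaling, with the replicate number as a block and without PGK replicate 3. TSFM shares 18.7% of its exon bases with another gene model on the same strand. GFM1 and GFM2, the mitochondrial translocation and recycling factors, were the other genes not called, at -0.13 and -0.04. EEF2, the cytosolic translocation factor, was at 6746 ± 118 CPM in the PGK and 3596 ± 32.0 CPM in the CAG line (SD, n = 3), and fell by 0.91 (SE 0.05) in a neighbourhood at -0.34. EEF1A2, one of the genes for the factor that carries charged tRNA, fell by 0.88 (SE 0.05), EEF1A1, the other, fell by 0.39 (SE 0.05), and EEF1G, a subunit of its exchange factor, fell by 0.34 (SE 0.05). EEF1A1 has many near-identical pseudogenes and EEF1G shares 99.9% of its exon bases with another same-strand gene model; the levels of these 2 genes are uncertain.

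Genes that make and trim tRNA were split. Among 39 tested genes of tRNA transcription and maturation 16 were lower and 11 higher, with a median of -0.08; 69.2% were called, against 62.0% of all tested genes. TRNT1, which adds the terminal CCA to which amino acids are joined, rose by 0.67 (SE 0.07), and POP1, a subunit of RNase P, by 0.43 (SE 0.05). MAF1, a repressor of RNA polymerase III, fell by 0.54 (SE 0.05), and TSEN15, of the tRNA splicing endonuclease, fell by 0.40 (SE 0.06). Of 16 genes of mitochondrial tRNA maturation 7 were lower and 5 higher (75.0% called), with a median of -0.10. GTPBP3, QTRT1 and OSGEPL1, which modify tRNA, fell by 0.61, 0.50 and 0.58. TRMT10C, a subunit of mitochondrial RNase P, rose by 0.42. The other subunits of that enzyme went both ways, as HSD17B10 rose by 0.25 (SE 0.06) and PRORP fell by 0.22 (SE 0.06). PRORP shares 40.9% of its exon bases with another gene model on the same strand. Neighbourhoods had shifted the same way for GTPBP3 at -0.47, QTRT1 at -0.42, TRMT10C at 0.37, TRNT1 at 0.38 and MAF1 and TSEN15 both at -0.38, and not for OSGEPL1 at 0.04 or POP1 at -0.01.

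**Figure D5:**
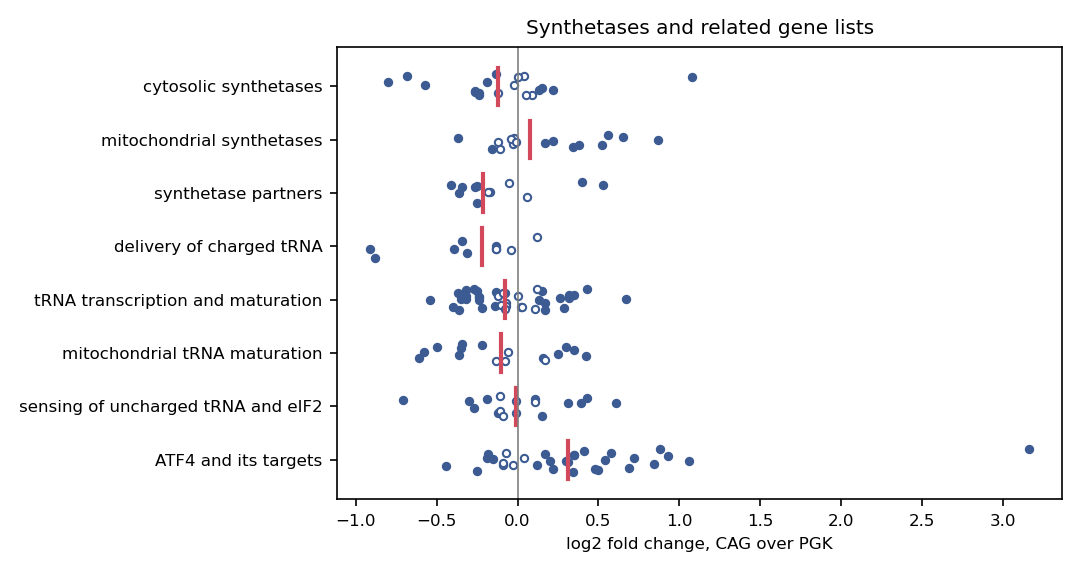
log2 fold change of each tested gene (x axis, CAG over PGK) in the synthetase sets and 6 related lists (y axis); filled points passed an adjusted p under 0.05, red bars are list medians and vertical scatter within a row has no meaning. The ATF4 list has the highest median at 0.31, and the elongation factors of the list for delivery of charged tRNA have the lowest at -0.22.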

How the data were processed

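RNA-seq counts of 35 aminoacyl-tRNA synthetase genes were compared between 3 PGK and 3 CAG libraries. The authors deposited whole-number read counts per Ensembl gene, not normalized and not pooled. The submitters' processing notes name hg19, featureCounts 2.0.3, HISAT2 2.2.1, Bowtie2 2.5.1 and cutadapt 4.6. Their roles, the annotation, any use of strand and the treatment of multi-mapped reads were not given in the sources used here. Of 20169 rows 19346 were named through GENCODE 29 (GRCh38, used for names, order, overlaps and transcript lengths, not coordinates), 823 kept their Ensembl ID alone, and 0 rows lacked an Ensembl gene ID. AARS1, CARS1, FARSB, GARS1, IARS2, KARS1, NARS1, RARS1, TARS2, WARS1 and WARS2 have pseudogenes in GENCODE 29 that may share reads with them.

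Counts were filtered with filterByExpr, scaled by TMM and tested with edgeR 4.0.16 in R 4.3.3 (quasi-likelihood, robust, two-sided, Benjamini-Hochberg over 13103 genes, threshold 0.05). Standard errors were obtained by dividing each log2 fold change by the square root of F. The libraries held 21896246 to 23442542 counts, and counting error was larger for the members with the fewest counts. These were SARS2, PARS2 and FARS2, at 155 to 292, 237 to 341 and 262 to 403 counts per library. Their standard errors were 0.10, 0.09 and 0.08. The test was checked on simulated data. The simulation used the same dispersion for every gene and few changed genes, unlike these libraries, so it does not give error rates for them. Members and lists were chosen with earlier results of these data known. The neighbourhood shift of 0.25, the size of 0.5 and the promoter motifs were chosen after values of these libraries were seen. Values in every library are given for the 12 called members with the largest change, for HARS1, HARS2, KARS1, GARS1 and WARS1 and for members whose call was lost in an alternative; up to 4 called genes with the largest change are named per related list, with ATF4, ASNS and EIF2AK4. Further genes were named after their values were seen. Alternatives were no filter, 1 CPM in 3 libraries, RLE or library size scaling, DESeq2 1.42.0, limma-voom (limma 3.58.1), a replicate block, a fold of 1.5 and leaving out each library. The 13 alternative fits counted for each member are these without the fold of 1.5.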

Additional observations from a re-analysis of the deposited data

How the results depend on the processing

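Of the 23 called synthetases 18 kept their call and direction in all 13 alternative fits, while CARS1, QARS1, TARS1, NARS2 and PARS2 lost the call in at least 1. The 13 fits do not include the test against a fold of 1.5, in which only YARS1, RARS1 and CARS2 were called. Against a fold of 1.5, 954 genes were higher and 558 lower, with 1 cytosolic enzyme higher and 1 lower, 1 mitochondrial enzyme higher and 0 lower, and so 2 of all listed enzymes higher and 1 lower. In that test 5 genes of the ATF4 list were higher and 0 lower, 2 elongation factors and 1 gene of uncharged tRNA sensing were lower, and 0 genes were called among partners, tRNA transcription and maturation or mitochondrial tRNA maturation (in edgeR's test against no change, 2, 12 and 5 genes of these lists were higher and 8, 16 and 8 lower at an unadjusted p under 0.05, and DESeq2 called 2, 9 and 4 higher and 7, 15 and 7 lower). Leaving out 1 library gave 2 to 5 cytosolic enzymes higher, 1 to 3 mitochondrial enzymes lower and 0 to 1 elongation factors higher. Elongation factors higher also numbered 1 with library size scaling and 1 with the replicate block. Samples with the same replicate number were not shown to be paired: their deviations correlated at 0.108, 0.103 and 0.013, and each library correlated best with its own number. The block gave 4461 genes higher and 4400 lower, from 4139 and 3986, with 3 further synthetases called (EPRS1, GARS1 and TARS2) and 0 of 23 lost.

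With library size scaling the list medians were -0.08 for cytosolic enzymes, 0.01 for all listed enzymes (reversed from -0.02), -0.18 for partners, -0.19 for elongation factors, -0.05 for tRNA transcription and maturation, -0.07 for mitochondrial tRNA maturation and 0.02 for uncharged tRNA sensing (reversed from -0.01). With the chromosome neighbourhood subtracted they were -0.02 for cytosolic and 0.01 for mitochondrial enzymes, -0.10, -0.11, -0.13 and -0.07 for the last 4 lists of the sentence before, and 0.26 for the ATF4 list. Leaving out 1 library gave -0.15 to -0.08 for cytosolic enzymes, -0.24 to -0.17 for partners, -0.25 to -0.21 for elongation factors, -0.10 to -0.08 and -0.14 to -0.09 for the tRNA maturation lists, -0.07 to -0.02 for uncharged tRNA sensing and 0.28 to 0.34 for ATF4. The threonine and tryptophan ratios, which changed sign within the spread between replicates, ran from -0.05 to 0.00 and from -0.04 to 0.06.

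Enzymes that were not called changed sign near 0: SARS1 at -0.007 without a filter and -0.004 with RLE or DESeq2, and -0.018 to 0.009 without 1 library; with library size scaling WARS1 at 0.013, HARS2 at 0.009 and YARS2 at 0.025; without 1 library WARS1 from -0.044 to 0.008, HARS2 from -0.078 to 0.02 and IARS2 from -0.068 to 0.001. With the neighbourhood subtracted, called enzymes that reversed were HARS1 at 0.04, QARS1 at -0.27, TARS1 at 0.01, CARS2 at -0.055 and PARS2 at -0.182. Why results changed between settings was not tested.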
